A study of Macaca mulatta with 2 samples.

Results

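Small leucine-rich proteoglycans are secreted matrix proteins whose core is a curved stack of leucine-rich repeats, and 10 of their genes were examined in macaque optic nerve. The members were the rows of the deposited expression table with the symbols *DCN*, *LUM*, *BGN*, *FMOD*, *OGN*, *PRELP*, *ASPN*, *OMD*, *PODN* and *KERA*, and all 10 were found among the 16684 genes listed. The material was total RNA of optic nerve from wild-type, untreated *Macaca mulatta*, 1 group with 2 libraries. The submitters' design text speaks of 2 macaques, whereas the methods of the study name a single adult male and describe postmortem donated tissue, so whether the libraries come from 1 animal or 2 cannot be told apart. Values were in TPM (transcripts scaled to a common library total), a level per unit of gene length that sums to 1000000 in each library, so levels of different genes can be set side by side. The columns are called Rep1 and Rep2, and they could not be matched to the individual samples.

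In connective tissue these proteins bind collagen fibrils and set their diameter and spacing, and many of them carry chondroitin, dermatan or keratan sulfate chains. Decorin and biglycan also bind growth factors such as TGF-beta, and soluble biglycan can act on innate immune receptors. In the optic nerve such matrix belongs to the meningeal sheath, the septa between axon bundles and the collagenous plates of the lamina cribrosa, and it is made mainly by fibroblast-like cells.

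The family is classed by the spacing of 4 cysteines ahead of the repeats, which form disulfide bonds that cap the core. The coding sequence of that stretch is shown for each member because it separates the members into groups without any use of their levels. It was read from the Mmul_10 genome on the coding strand, 5′ to 3′, with the cysteine codons in capitals. In 3 members the gaps between the cysteines were 3, 1 and 6 residues.
DCN: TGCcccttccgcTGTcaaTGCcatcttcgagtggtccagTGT
BGN: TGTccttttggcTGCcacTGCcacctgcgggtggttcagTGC
ASPN: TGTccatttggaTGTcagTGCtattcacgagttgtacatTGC
In 5 members the gaps were 3, 1 and 9 residues.
LUM: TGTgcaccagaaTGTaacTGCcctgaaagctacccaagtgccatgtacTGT
FMOD: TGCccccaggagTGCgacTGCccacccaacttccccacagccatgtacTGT
PRELP: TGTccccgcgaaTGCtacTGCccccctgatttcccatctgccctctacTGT
OMD: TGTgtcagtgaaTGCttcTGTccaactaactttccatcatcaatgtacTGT
KERA: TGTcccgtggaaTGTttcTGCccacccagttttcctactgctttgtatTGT
*OGN* had gaps of 2, 1 and 6 residues and *PODN* had gaps of 3, 1 and 7 residues.
OGN: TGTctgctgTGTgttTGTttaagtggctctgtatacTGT
PODN: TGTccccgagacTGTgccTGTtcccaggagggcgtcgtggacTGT
These stretches each lay within 1 exon, which was exon 3 in *OGN*, exon 1 in *FMOD* and exon 2 in the other 8 members. For *DCN* it was at chr11:90947709-90947750 on the minus strand and for *BGN* at chrX:149484060-149484101 on the plus strand. For *ASPN* it was at chr15:107563274-107563315, for *OMD* at chr15:107512234-107512284 and for *OGN* at chr15:107488574-107488612, all on the minus strand. For *LUM* it was at chr11:90878314-90878364 and for *KERA* at chr11:90829462-90829512, both on the minus strand. For *FMOD* it was at chr1:60854714-60854764 and for *PODN* at chr1:171342163-171342207, both on the minus strand, and for *PRELP* at chr1:60993377-60993427 on the plus strand.

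Whole proteins translated from the same annotation fell into the same 2 larger groups. The 3 pairs within the group of *DCN*, *BGN* and *ASPN* were 52.9% to 56.7% identical over aligned residues, with *DCN* and *BGN* the closest of all 45 pairs. The 10 pairs within the group of *LUM*, *FMOD*, *PRELP*, *OMD* and *KERA* were 36.7% to 53.9% identical, with *PRELP* and *KERA* the closest. The 15 pairs that joined these 2 groups were 28.2% to 34.2% identical, so these ranges did not overlap with those within the groups. Pairs with *OGN* or *PODN* are not in these ranges. *LUM* and *PODN*, at 37.3%, were above the lowest pair within the second group. Proteins ran from 297 residues in *OGN* to 684 in *PODN*, and matches to the repeat core ran from 6 in *OGN* to 19 in *PODN*. Features ahead of the cysteines were counted from the first translated residue, so the signal peptide, which secretion removes, is included. Ahead of the cysteines *DCN* held 1 serine-glycine pair, as did *LUM* and *PODN*. Glycosaminoglycan chains can be attached at this dipeptide, but whether a pair counted here lies in the mature protein or carries a chain was not tested. *BGN* held 2 such pairs and *ASPN* none. *ASPN* instead held a run of 5 aspartates, the feature that gives asporin its name. *FMOD*, whose protein is known for sulfated tyrosines, held 12 tyrosines ahead of the cysteines, and *OMD* held 6. *PRELP*, named for its arginine- and proline-rich end that binds heparin, held 31 such residues there, as many as the longer stretch of *PODN*. Of the last 40 residues, 19 were acidic in *PODN* and 16 in *OMD*, against 1 to 5 in the other 8 members.

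Of the 10 members, 8 sit in gene clusters of the family. On chromosome 11, *KERA* (90823851 to 90831703), *LUM* (90873214 to 90880995) and *DCN* (90914795 to 90952424) follow each other on the minus strand within 231 kb that also hold *EPYC*, with no other protein-coding gene. On chromosome 15, *OGN* (107479658 to 107500435), *OMD* (107509432 to 107519462) and *ASPN* (107543803 to 107571420) lie beside *ECM2* within 147 kb, all on the minus strand. *CENPP*, a centromere protein gene, runs across this cluster on the plus strand, but it shared 0 exon bases with any of the 3 members, and its own level was 2.08 TPM in Rep2 but listed at 0 in Rep1. On chromosome 1, *FMOD* (60847447 to 60858228) and *PRELP* (60984054 to 60999622) lie with *OPTC* within 168 kb. *BGN* (chromosome X, 149474120 to 149488768) and *PODN* (chromosome 1, 171326930 to 171351269) stand alone.

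The libraries differed widely from each other, which sets how firmly any level can be stated. Rep1 listed 38.5% of all genes at 0 and Rep2 listed 12.5%. From the ratios of the values, 1 read in Rep1 was worth as much as 17.2 reads in Rep2. Rep1 was lower than Rep2 across genes, with a median difference of -1.52 on the log2(TPM + 1) scale over the 11754 genes whose mean reached 1 TPM. The SD of a single library near the members' levels was 1.47 to 1.92 on that scale. Photoreceptor markers, which belong to retina and not to nerve, summed to 3294 TPM in Rep1 against 4.54 TPM in Rep2. Of the 6, 5 were higher in Rep1, whereas 71.9% of the 11754 genes were lower there. Most of that sum came from *GNAT1* at 2763 TPM and *PDE6G* at 514 TPM in Rep1, whereas the other 4 markers ran from 1.74 to 9.76 TPM there. The defining markers of the labelled tissue were present in both libraries, with *MBP* of myelin taking 4.37% of the total in Rep1 against 19.96% in Rep2. All 6 oligodendrocyte and all 6 astrocyte markers were lower in Rep1 as deposited, as were 71.9% of the 11754 genes. Of these markers, *SLC1A3* was level at 0.032 after median-of-ratios scaling. With 1 condition there was nothing to test between groups, and 2 libraries cannot give a two-sided sign test p below 0.5. Whether the markers' differences had a part in the members' differences was not tested.

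*DCN* was by far the most abundant member. Decorin, its product, binds along collagen fibrils and limits their lateral growth. *DCN* stood at 995 TPM in Rep1 against 10504 TPM in Rep2, a mean of 5749.8 ± 6724 TPM (SD, n = 2 libraries). Only 2 genes of the whole table were above it in Rep2, whereas it ranked 160th in Rep1. From the ratio of its values, these levels rested on at least 794 and 144021 reads, the highest such lower bounds in the family. *DCN* alone took 77.4% of the members' summed TPM in Rep1 and 80.4% in Rep2, so its dominance within the family was a feature of both libraries. The sum of all 10 members was 1285 TPM in Rep1 against 13058 TPM in Rep2, or 0.129% and 1.31% of the library.

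The relatives of decorin with the same cysteine spacing were far lower. *BGN*, which encodes biglycan, was at 2.66 TPM in Rep1 against 68.6 TPM in Rep2 (35.6 ± 46.6 TPM, SD, n = 2), resting on at least 6 and 2657 reads. *ASPN*, which encodes asporin, was at 11.7 TPM in Rep1 against 23.1 TPM in Rep2 (17.4 ± 8.07 TPM, SD, n = 2), resting on at least 19 and 645 reads. The 2 most similar proteins of the family thus came from transcripts of very different level, since *DCN* exceeded *BGN* 374-fold in Rep1 and 153-fold in Rep2. The order of *BGN* and *ASPN* was not the same in the libraries, as *ASPN* was above *BGN* in Rep1 and below it in Rep2.

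**Figure D1:**
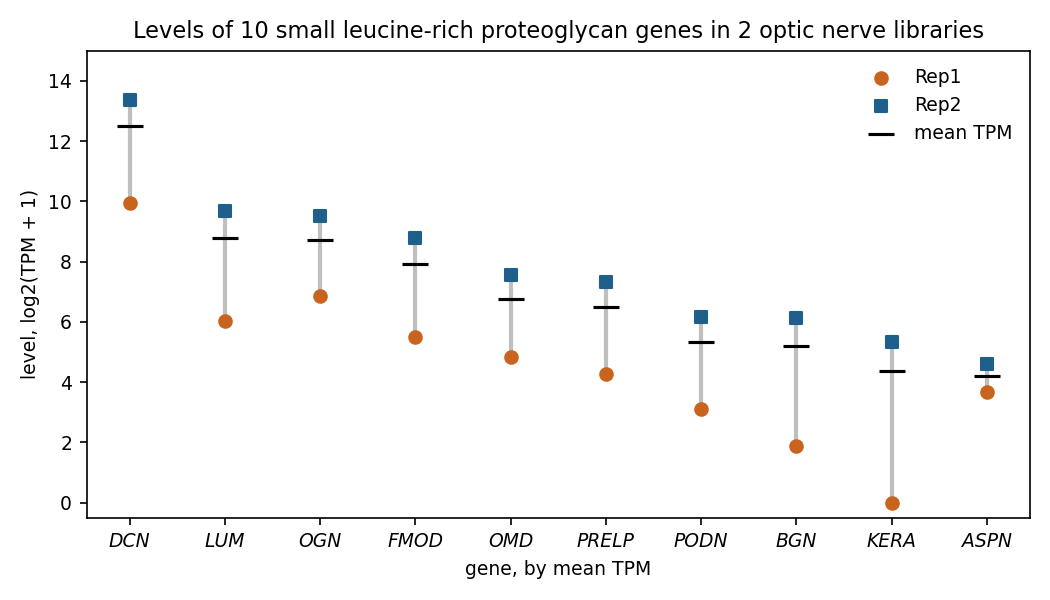
Levels of the 10 genes on a log2(TPM + 1) axis, ordered by mean TPM, with Rep1 as circles, Rep2 as squares and the mean TPM as a dash. *DCN* is on top in both libraries, *KERA* is listed at 0 in Rep1, and the gap between the libraries is narrowest in *ASPN*.

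The members with gaps of 3, 1 and 9 residues spread over a wide range of levels. *LUM* encodes lumican, a keratan sulfate proteoglycan known from the corneal stroma, and was at 63.7 TPM in Rep1 against 826 TPM in Rep2 (445 ± 539 TPM, SD, n = 2). *FMOD* encodes fibromodulin, which guides collagen cross-linking, and was at 44.1 TPM in Rep1 against 443 TPM in Rep2 (244 ± 282 TPM, SD, n = 2). The smallest read numbers that could give the Rep1 values were 8 for *LUM* and 4 for *FMOD*, which are lower bounds and not totals. *OMD*, which encodes the acidic, mineral-binding osteomodulin, was at 27.4 TPM in Rep1 against 189 TPM in Rep2 (108 ± 114 TPM, SD, n = 2). *PRELP*, whose product can tie basement membranes to collagen, was at 18.2 TPM in Rep1 against 160 TPM in Rep2 (89.2 ± 100 TPM, SD, n = 2). In both libraries these 4 genes kept the order *LUM*, *FMOD*, *OMD*, *PRELP*.

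*KERA* encodes keratocan, a keratan sulfate proteoglycan best known from the cornea. It was at 39.8 TPM in Rep2, above 74.7% of the genes detected in either library, and was listed at 0 in Rep1. Of all genes near this level it was not alone, since 6.83% of the 3762 genes at 20 to 80 TPM in Rep2 were listed at 0 in Rep1. No read number could be worked out for *KERA*, because that needs a value above 0 in both libraries. Among markers of corneal and conjunctival epithelium, all 5 in the table were listed at 0 in Rep1 and their sum was 2.92 TPM in Rep2, with *KRT12* of the corneal epithelium at 0.831 TPM. The marker lists held no gene of the corneal stroma itself.

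*OGN* and *PODN* complete the family. *OGN* encodes osteoglycin, also called mimecan, and was at 115 TPM in Rep1 against 733 TPM in Rep2 (424 ± 437 TPM, SD, n = 2), on at least 23 and 2528 reads. In Rep1 it was the second most abundant member, and in Rep2 *LUM* took that place. *PODN* encodes podocan, described first in kidney podocytes, and was at 7.60 TPM in Rep1 against 71.1 TPM in Rep2 (39.3 ± 44.9 TPM, SD, n = 2). *PODN* stood next to *BGN* in Rep2, with 71.1 and 68.6 TPM.

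The order by mean TPM was *DCN*, *LUM*, *OGN*, *FMOD*, *OMD*, *PRELP*, *PODN*, *BGN*, *KERA* and *ASPN*. The mean is set largely by Rep2, where the members sum to 13058 TPM, so its order for all 45 pairs there carries little information, and Rep1 gave that order for 41. On the log2(TPM + 1) scale, *DCN* was above *LUM* by 3.81, or 2.18 SDs of a single library, and the other 8 pairs of neighbours differed by less than 1 SD. This SD is a spread between libraries and holds their general shift, which members of 1 library share. A difference under 1 SD thus does not show that an order is unsettled. With the SD about the mean difference the count was also 8. Among neighbours, only *LUM* with *OGN* and *KERA* with *ASPN* were in the other order in Rep1. *BGN* and *KERA* passed 1 SD with a pseudocount of 0.1 (1.12 SDs) and after median-of-ratios scaling (1.04 SDs), and under both of these *ASPN*, which is lower on mean TPM, was more than 1 SD above *KERA* (-1.18 SDs for *KERA* minus *ASPN* after scaling). *OGN* and *LUM* were the closest, with *LUM* higher on mean TPM but *LUM* minus *OGN* at -0.33 on the mean of log2 values. *KERA* and *ASPN* likewise changed places with the scale, because the 0 of *KERA* in Rep1 weighs more on the log2 scale. Of all 45 pairs, 31 were more than 1 SD apart in the order of mean TPM. Across the 10 members the log2 levels of the libraries correlated with Pearson r 0.911 and Spearman rho 0.915, a description over 10 genes that share 2 libraries.

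All 10 members were lower in Rep1 than in Rep2 as deposited, which held for 71.9% of the 11754 genes whose mean reached 1 TPM, and *ASPN* turned the other way after the scaling described next. Of the 10 members, 9 were at least 2-fold lower in Rep1 on the log2(TPM + 1) scale, against 58.7% of those genes. All 10 passed that minimum, *KERA* through Rep2 alone. The members' median difference, Rep1 minus Rep2, was -3.18, against -1.52 over all those genes. Median-of-ratios scaling, which takes out a general log2 shift of -1.19, left a median of -2.03 over the members and -0.48 over all genes. After it 9 members were still at least 2-fold lower in Rep1, against 40.2% of all genes, and the exception was again *ASPN*. The members share their libraries, so their differences are not independent of each other. In bulk RNA, fewer cells that make these transcripts and less RNA per cell cannot be told apart.

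Individual members departed from this median in both directions. *KERA* had the largest difference, -5.35, followed by *BGN* at -4.25 and *LUM* at -3.67. As a plain ratio of TPM, without the pseudocount, *BGN* was 25.8-fold higher in Rep2. *DCN* was at -3.40 and *FMOD* at -3.30, and 1177 of the 11754 genes differed by as much as *DCN* or more in that direction. *PRELP* and *PODN* were both at -3.07, *OMD* at -2.74 and *OGN* at -2.67. *ASPN* was at -0.93 as deposited and at 0.20 after scaling, the only member whose direction turned. The differences were also divided by the root mean square, about 0, of those among the 200 genes nearest in level. This gave -1.98 for *BGN*, -1.97 for *KERA* and -0.406 for *ASPN*. The general shift between the libraries stays in these values, so they do not place a member among those genes.

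**Figure D2:**
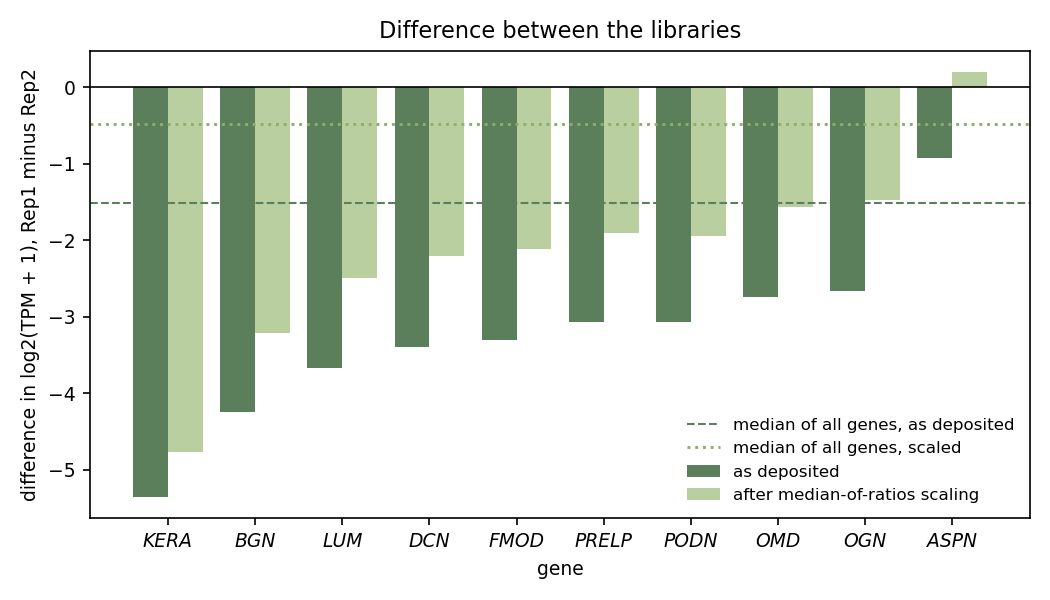
Difference between the libraries for each gene in log2(TPM + 1), Rep1 minus Rep2, as deposited (dark bars) and after median-of-ratios scaling (light bars), with the medians of all genes as dashed and dotted lines. All members but *ASPN* lie below the medians, which are -1.52 and -0.48.

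Ratios between members within a library do not depend on the total of that library, and several of them were close in Rep1 and Rep2. *OGN* over *OMD*, neighbours on chromosome 15, was 4.18 in Rep1 and 3.88 in Rep2. *FMOD* over *PRELP* was 2.42 and 2.77, *LUM* over *FMOD* was 1.45 and 1.86, and *DCN* over *LUM* was 15.6 and 12.7. Other ratios were less steady. *DCN* over *OGN* was 8.68 in Rep1 and 14.3 in Rep2, and *DCN* over *BGN* was 374 and 153. *OGN* over *ASPN*, in the same cluster with *OMD* between them, was 9.80 in Rep1 and 31.7 in Rep2. With *DCN* set aside, *OGN* took 39.5% of the remaining 9 genes in Rep1 and 28.7% in Rep2, and *LUM* took 22.0% and 32.3%. *ASPN* took 4.03% in Rep1 and 0.905% in Rep2, and *BGN* took 0.918% and 2.69%. *PRELP* took 6.28% and 6.27%. As the read totals are unknown, no interval can be given for these shares.

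**Figure D3:**
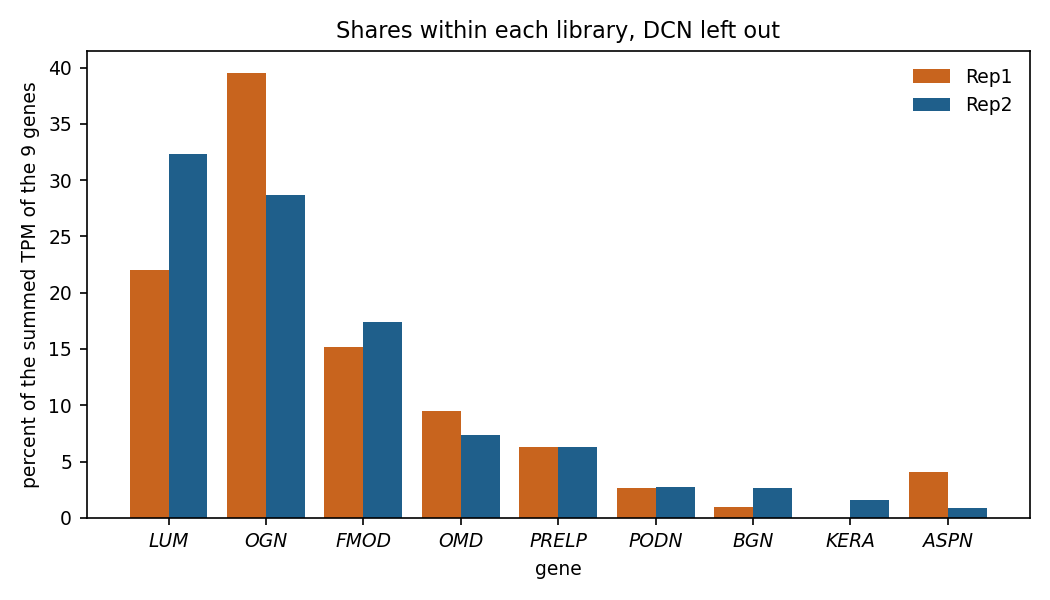
Percent of the summed TPM of the 9 genes other than *DCN* taken by each, in Rep1 and Rep2. *OGN* leads in Rep1 with 39.5% and *LUM* in Rep2 with 32.3%.

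Genes of 1 cluster did not share 1 level. On chromosome 11 the levels stepped down from *DCN* over *LUM* to *KERA*, and *EPYC*, the epiphycan gene at the far end, was listed at 0 in both libraries. On chromosome 15, *OGN* was above *OMD* and *OMD* above *ASPN* in both libraries, while *ECM2* was at 2.19 TPM in Rep1 against 39.7 TPM in Rep2. On chromosome 1, *FMOD* was above *PRELP* in both libraries, and *OPTC*, the opticin gene known from the vitreous, was listed at 0 in both. Of the 8 further family genes sought, 7 were in the table and 5 were above 0. *CHAD*, which encodes the cartilage protein chondroadherin, was the highest of these with 16.5 and 83.4 TPM, and *TSKU*, the tsukushi gene, was at 1.77 and 35.6 TPM. These 5 genes had a median difference of -2.35. *NYX*, which encodes nyctalopin, was at 0.0250 TPM in Rep2 but listed at 0 in Rep1.

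**Figure D4:**
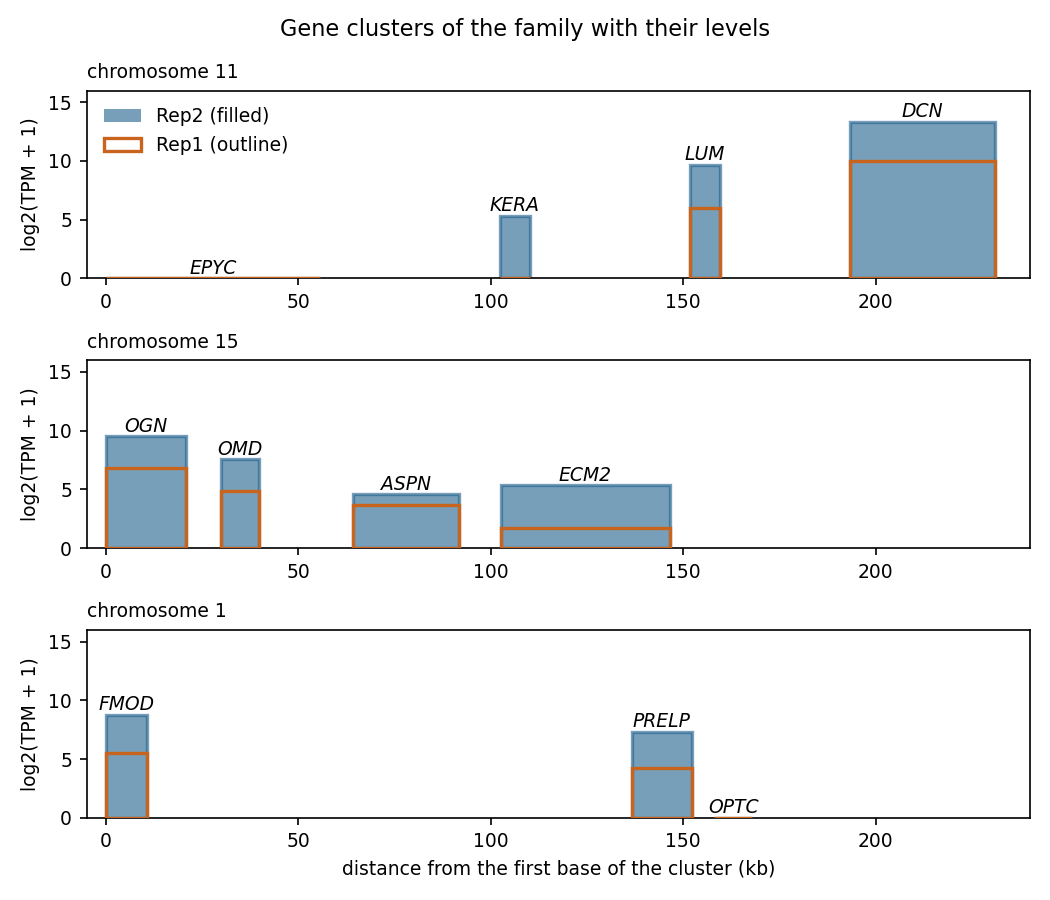
The 3 gene clusters drawn to scale by distance from the first base of each cluster (kb), with bar height as log2(TPM + 1) in Rep2 (filled) and Rep1 (outline). Levels step down from *DCN* to *KERA* on chromosome 11, and *EPYC* and *OPTC* have no bar because they are listed at 0.

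The fibril genes with which these proteoglycans work were also lower in Rep1. That list of 17 held collagen chains and other genes of the fibres and their assembly, such as *LOX* and *COMP*. All 17 were at least 2-fold lower in Rep1 on the log2(TPM + 1) scale, against 58.7% of the genes reaching 1 TPM. Their median difference was -2.93 beside -3.18 in the proteoglycans. After median-of-ratios scaling *COL2A1* was level at -0.05 and *COL3A1* was at -0.84. The rest of the list was still at least 2-fold lower, against 40.2% of the genes reaching 1 TPM. *COL1A1* was at 138 TPM in Rep1 against 943 TPM in Rep2, and *COL1A2* at 320 and 2440.1 TPM, so *DCN* was above both chains of type I collagen in each library. *DCN* over *COL1A2* was 3.11 in Rep1 and 4.30 in Rep2, and *DCN* over *COL3A1*, the type III chain, was 9.94 and 25.6. *ELN*, the elastin gene, was at 59.2 TPM in Rep2 but listed at 0 in Rep1, as *KERA* was. Of 11 fibroblast markers that are neither proteoglycans nor collagens, 10 were at least 2-fold lower in Rep1 as deposited, against 58.7% of the genes reaching 1 TPM. Their median was -2.49, against -1.52 over those genes. After scaling the medians were -1.35 and -0.48. *ISLR* at -0.32 and *FOXC1* at -0.22 were then no longer 2-fold lower, and 40.2% of the genes reaching 1 TPM still were. *MFAP4*, a microfibril protein gene, was at 160 and 1202 TPM, whereas *CDH11*, a cadherin gene, was at 221 TPM in Rep1 against 85.6 TPM in Rep2. The summed fibroblast markers were at 781 TPM in Rep1 against 3517 TPM in Rep2, and their part in the members' differences was not tested.

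Enzymes that build the sugar chains stood at lower levels than the core proteins and had medians nearer to 0 on the log2(TPM + 1) scale, which compresses the differences of low genes. With a pseudocount of 0.1 the median was -2.23 for keratan sulfate enzymes in place of -0.93, and -1.62 for chondroitin and dermatan sulfate enzymes in place of -0.84. The median gene was at a mean of 13.0 TPM among linkage enzymes, 5.77 TPM among chondroitin and dermatan sulfate enzymes and 6.29 TPM among keratan sulfate enzymes, beside 98.7 TPM among the 10 proteoglycans. Of 6 genes of the linkage sugars, 4 were at least 2-fold lower in Rep1, with a median difference of -1.54, near the 58.7% and -1.52 of the genes reaching 1 TPM. *XYLT2*, a xylosyltransferase that starts the chain on serine, was at 26.7 TPM in Rep1 against 6.93 TPM in Rep2. Its partner *XYLT1* was at 2.75 and 14.3 TPM. Of 16 chondroitin and dermatan sulfate genes, 14 were lower in Rep1 as deposited, against 71.9% of the genes reaching 1 TPM. At least 2-fold lower were 5 of the 16, beside 58.7% of the genes reaching 1 TPM, with a median of -0.84. The sets differ, as *CHSY3*, *CHST3* and *CHST13* had means below 1 TPM, and without them the median was also -0.84. *CHSY3* and *CHST13*, below 1 TPM in both libraries, cannot differ 2-fold on this scale. *CHPF*, a chondroitin polymerising factor, was at 6.26 and 80.7 TPM, and *CHSY1*, a chondroitin synthase, at 2.86 and 36.5 TPM. *DSE*, the epimerase that turns chondroitin into dermatan sulfate, was at 1.13 and 8.04 TPM, and *UST*, a uronyl sulfotransferase, was at 23.8 and 24.3 TPM. Of 7 keratan sulfate genes, 3 were at least 2-fold lower in Rep1, against 58.7% of the genes reaching 1 TPM, with a median of -0.93. Of the 7, *B3GNT7*, *CHST1* and *CHST6* did not reach that mean, and without them the median was -1.40. *CHST6*, below 1 TPM in both libraries, cannot differ 2-fold on this scale. *CHST6*, the sulfotransferase of corneal keratan sulfate, was at 0.910 TPM in Rep2 but listed at 0 in Rep1, and *B3GNT7*, which extends the chain, was at 1.88 TPM and listed at 0. *B4GALT4*, a galactosyltransferase for the same chain, was at 11.2 TPM in Rep1 against 70.7 TPM in Rep2.

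Markers of cell types differed among themselves in the same comparison. The median difference was -2.62 for astrocyte markers, -2.43 for oligodendrocyte markers, -2.27 for mural cell markers, -1.53 for endothelial markers and -1.48 for microglia markers. It was -0.87 for the surface epithelium, 2.69 for photoreceptors and 0.68 for housekeeping genes. Of 8 housekeeping genes, 6 were higher in Rep1, whereas 71.9% of the genes reaching 1 TPM were lower there.

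**Figure D5:**
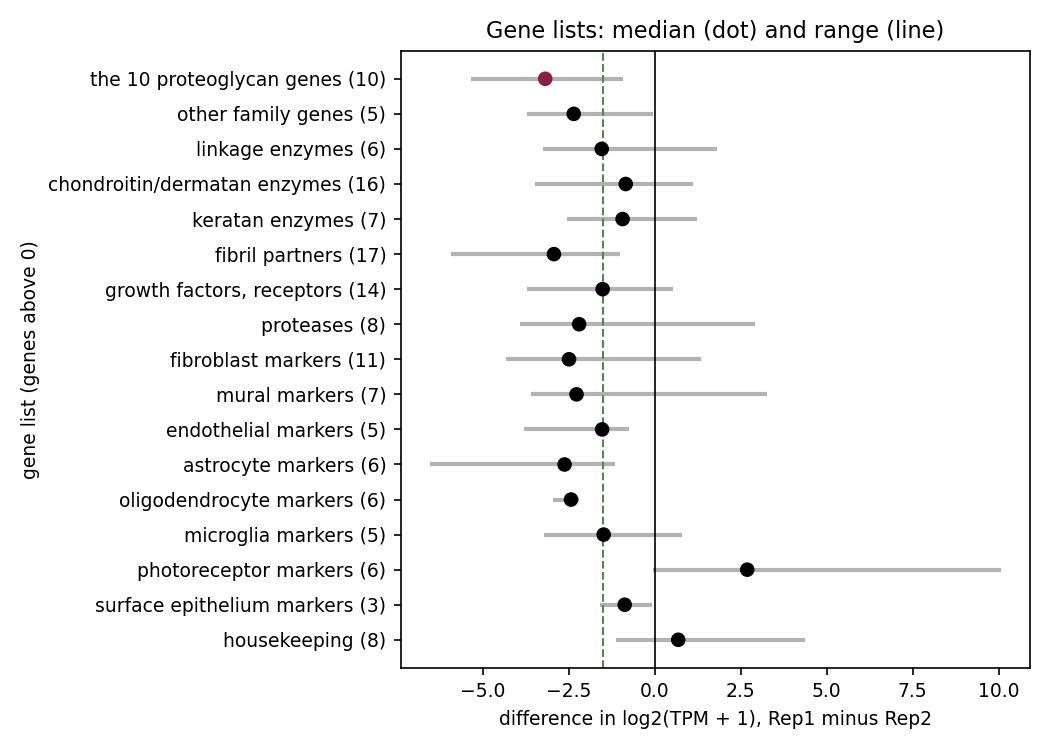
Median (dot) and range (line) of the difference in log2(TPM + 1), Rep1 minus Rep2, for the 10 proteoglycan genes and 16 other lists, with the number of genes above 0 in brackets and the median of all genes, -1.52, as a dashed line. The medians of the proteoglycans, -3.18, and of the fibril partners, -2.93, change places with a pseudocount of 0.1 (-3.27 and -3.49), and photoreceptor and housekeeping genes lie above 0.

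Growth factors and receptors, several of which these proteins are known to bind, had a median gene at a mean of 17.6 TPM. *TGFB1* was at 26.8 TPM in Rep1 against 24.5 TPM in Rep2, and *TGFB3* was at 24.8 and 41.2 TPM. *TLR2*, a receptor for soluble biglycan, was at 0.862 TPM in Rep2 but listed at 0 in Rep1, and *TLR4* was at 0.594 and 2.90 TPM. *LRP1*, an endocytic receptor for decorin, was at 67.0 and 136 TPM. Of the 14 genes of that list in the table, 9 were at least 2-fold lower in Rep1, against 58.7% of the genes reaching 1 TPM. Their median was -1.51, or -1.74 without *TLR2*, whose mean is below 1 TPM, beside the -1.52 of those genes. Of 8 protease genes and their enhancers above 0, 5 were at least 2-fold lower in Rep1, beside the same 58.7%. Their median was -2.20, or -2.38 without *ADAMTS5*, whose mean is below 1 TPM. *PCOLCE*, the enhancer of procollagen cleavage, was at 39.8 and 620 TPM, and *BMP1*, which trims the biglycan propeptide, was at 7.11 and 11.7 TPM. *MMP14*, a membrane-bound collagenase, went the other way with 70.0 TPM in Rep1 against 8.35 TPM in Rep2.

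The 3 genes outside the family whose pair of levels lay nearest to that of *DCN* were *CST3*, *CLU* and *PLEKHB1*. *CST3*, which encodes the protease inhibitor cystatin C, was at 964 TPM in Rep1 against 10288 TPM in Rep2, 0.0550 log2 units away. *CLU*, the gene of the chaperone clusterin, was at 809 and 10446 TPM, and *PLEKHB1* was at 1060 and 6463 TPM. The likeness rests on 2 libraries and says only that the levels were near each other.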

How the data were processed

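Libraries were made from total RNA of macaque optic nerves with a SMARTer v4 low-input kit, which amplifies cDNA. Per the labels and the study's methods, the authors used FastQC 0.11.9, Trim Galore 0.6.6, STAR 2.7.1a with the Mmul_10 genome, and featureCounts 1.5.3. The deposited table holds TPM as the authors computed it, for 16684 genes in 2 libraries that were not pooled. Gene lengths, strand setting and the handling of reads with several alignments are not given in the sources used here. TPM depends on every other gene of the library, so abundant transcripts in 1 library lower the rest.

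Python 3.11, numpy 2.4.6, pandas 2.3.3, Biopython 1.88 and matplotlib 3.10.9 were used. Nothing was tested between groups. Means and SDs were taken on TPM, and differences on log2(TPM + 1), which understates the change of low genes. Percentiles were taken among the 14693 genes above 0 in at least 1 library. For the spread of 1 library, the mean square of the differences between Rep1 and Rep2, about 0, over the 200 genes nearest in mean log2 level was divided by 2 and its root taken. Read numbers are the smallest whole numbers whose ratio gives the ratio of the TPM values within 1e-12. They were found for 99.99% of the 10168 genes above 0 in both libraries and are lower bounds, and amplified copies are not independent molecules. The RefSeq annotation of Mmul_10 held all 16684 symbols and gave positions and coding sequences, with curated transcripts preferred and then the longest. Proteins were aligned globally with BLOSUM62 and gap penalties of 11 and 1. The repeat core was counted, overlaps included, as leucine, isoleucine, valine, methionine, phenylalanine or tyrosine at positions 1, 4, 6 and 11 with asparagine, cysteine, threonine or serine at position 9.

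Genes named were all members, genes of 16 lists around them, and the 3 genes nearest to the most abundant member. Members and lists were chosen with earlier results of these data known. Alternatives were another pseudocount, median-of-ratios scaling, a minimum mean of 1 TPM, leaving out the 10 most abundant genes, a geometric mean, other sets of genes for percentiles, the 500 nearest genes, an SD about the mean difference, and each library alone. Read recovery, the spread of 1 library and median-of-ratios scaling were tested on simulated data with known answers. The spread was simulated without a general shift and with a smaller SD than that of the data. The other steps were not tested in this way.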

Additional observations from a re-analysis of the deposited data

How the results depend on the processing

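No paired analysis was possible because a single group was sampled. Over 71 results, 209 values came from alternatives that kept both libraries. Of these, 1 changed sign, 5 moved and 203 did not. Counts were taken as moved only if they changed more than 1.5-fold, so 6 neighbouring pairs in place of 8 was no move. All other values were judged against the spread of the libraries. That spread is wide, with an SD of 8324 TPM on the summed mean of 7171 TPM, and 2.34 on the log2 scale for the members' median difference, so staying within it says little about stability. The members' median, for example, went from -3.18 to -2.03 under scaling within it. The change of sign was *ASPN*, whose log2 difference was 0.20 under median-of-ratios scaling, which raises Rep1 against Rep2 by construction. With a pseudocount of 0.1 the difference of *KERA* widened to -8.64, as its value in Rep1 is 0, and the medians of photoreceptor and surface epithelium markers became 5.43 and -3.22. Under either of these alternatives 6 neighbouring pairs, not 8, were closer than 1 SD. The percentile of *ASPN* moved from 61.4 to 66.0 among all listed genes and to 51.8 among genes whose mean reached 1 TPM. Each library alone always lies 0.707 SDs from the mean of 2, so the single-library values say nothing about stability. The summed mean ran from 1285 TPM in Rep1 to 13058 TPM in Rep2, more than 1.5 times from the mean of 7171 TPM either way. The lower depth of Rep1 limits every value there, and the 0 of *KERA* does not show absence.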
